A study of Homo sapiens with 9 samples.

Results

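Of the 40332 gene symbols counted in this RNA-seq series, 55 belong to the genome activation and 8-cell-like genes described here. They were taken by name, and the rule uses no measured value, but the members were chosen with earlier results of these data known. The set holds every row of the PRAMEF family, of TRIM43, of TRIM49, of MBD3L2 to MBD3L5, and of RFPL4A and RFPL4B, together with 12 named genes. Those 12 (ZSCAN4, LEUTX, TPRX1, DUXA, DUXB, ZSCAN5B, ZNF280A, KDM4E, H3Y1, CCNA1, SLC34A2 and KHDC1) are treated as single-copy, and the other 43 as multi-copy genes. All libraries came from wild-type H1, a widely used line of human embryonic stem cells, and each of the 3 groups holds 3 libraries. The EPZ group was treated for 3 days with 5 µM EPZ-6438 in N2B27. EPZ-6438 blocks the catalytic activity of EZH2, the enzyme of Polycomb repressive complex 2 that methylates histone H3 at lysine 27. The N2B27 group was kept in the basal medium alone, for a time that the sources do not give. The PXGL group was kept in the naive-state medium, in which LIF is combined with blockers of MEK, tankyrase and protein kinase C. The sources call the cells of the N2B27 and EPZ groups PXGL-H1, and all 3 groups are 1 cell line, so the libraries hold no variation between donors.

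In the human embryo most transcription starts around the 8-cell stage, in a wave called major genome activation. Pioneer factors of the DUX4 kind and paired-like homeodomain proteins, LEUTX and TPRX1 among them, act early in this wave, and their targets include ZSCAN4 and the PRAMEF, TRIM43, MBD3L and RFPL4 families. A small share of naive human pluripotent cells in culture is known to enter a comparable state, often called 8-cell-like, for which ZSCAN4, TPRX1, LEUTX and KHDC1 are commonly used as markers. These are bulk libraries, so a change in the share of cells that express a gene and a change in the RNA per cell cannot be told apart.

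Expected counts summed to between 14482124 and 18358519 per library, so 3 counts correspond to 0.163 to 0.207 CPM, the normalised read count per TMM-scaled library size. Intervals and floors cover counting error only. Whether the replicates were separate cultures is not stated, and the p-values rest on a spread between libraries that may be technical only. Within groups, chi-square per degree of freedom between libraries was 2.57 to 3.66, except for both pairs with PXGL replicate 1, at 19.6 and 26.3. That library stands apart. Counts of calls and family sums against PXGL are also given without it, while fold changes of single genes against PXGL include it. The pluripotency markers POU5F1, NANOG, SOX2, LIN28A, SALL4, PRDM14 and DPPA4 were counted in all 9 libraries, with POU5F1 between 1161 and 1504 CPM. All 7 were called lower in EPZ than in N2B27 with no overlap between the groups, and their median log2 fold change was -0.34. Of all genes tested, 10.6% were called lower. The log2 fold change was -0.87 ± 0.08 for SOX2 (adjusted p = 5.53e-07), -0.42 ± 0.06 for PRDM14, -0.36 ± 0.06 for NANOG and -0.28 ± 0.07 for POU5F1 (adjusted p = 0.0123, edgeR). The POU5F1 call was lost without EPZ replicate 2 (0.0567) or N2B27 replicate 1 (0.0587). In N2B27 against PXGL, LIN28A, DPPA4 and SALL4 were higher, SOX2 was called lower (adjusted p = 0.0483, and 0.0518 to 0.161 in the settings that ended the call) and 3 were not called, of which POU5F1 and NANOG were called higher without PXGL replicate 1 (1.80e-07 and 0.000470). The part of these markers in the results for the 55 genes was not tested.

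The 2 classes differ in what their counts mean. For the 11 single-copy genes with a GENCODE 29 transcript, a median of 0.1% (range 0.0% to 16.9%) of the 50-base stretches of the longest transcript were also found in a transcript of another gene. For the 43 multi-copy genes the median was 79.9%, with a range of 3.3% to 100%. Of the 103 values above 0 of single-copy genes, 5 (4.9%) were not whole, and of the 296 of multi-copy genes 216 (73.0%), within a tolerance of 0.005 counts. Values that are not whole arise where a counting program divides a read between genes. PRAMEF12, at 3.3% shared, and PRAMEF20, at 4.3%, are multi-copy by family name but nearly unique in sequence.

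Of the members with a promoter entry, most carry, just upstream of their annotated start, short sequences that homeodomain proteins of this wave are known to bind. The promoters of 39 members, 45 promoters in all, were found in RefSeq (GRCh38.p14), each reaching from 250 bases before to 50 after the start. They were searched on both strands for TAATCC, a word recognised by paired-like homeodomain proteins such as OTX2, and for TAANNNAATCA, which holds the fixed bases of the DUX4 recognition site. The TATA box word TATAAA was searched on the sense strand only. Both first patterns can overlap. Capitals in the windows below mark a match to either of the first pair of patterns on either strand, so that TAATCC on the opposite strand reads GGATTA. Each window holds the 200 bases before the start, 5′ to 3′ on the gene's strand, and was chosen to show a transcription factor gene, a histone gene and the multi-copy families:
ZSCAN4: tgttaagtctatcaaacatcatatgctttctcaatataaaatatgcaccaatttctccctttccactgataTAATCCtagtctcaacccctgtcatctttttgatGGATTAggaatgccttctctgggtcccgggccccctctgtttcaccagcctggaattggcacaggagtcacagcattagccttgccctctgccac
LEUTX: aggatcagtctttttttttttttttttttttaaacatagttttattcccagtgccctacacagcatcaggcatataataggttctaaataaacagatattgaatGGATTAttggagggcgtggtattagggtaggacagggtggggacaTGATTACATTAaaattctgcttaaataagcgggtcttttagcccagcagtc
H3Y1: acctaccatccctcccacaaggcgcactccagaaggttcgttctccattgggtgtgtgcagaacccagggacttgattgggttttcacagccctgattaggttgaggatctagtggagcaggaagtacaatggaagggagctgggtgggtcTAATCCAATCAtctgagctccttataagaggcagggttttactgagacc
MBD3L2: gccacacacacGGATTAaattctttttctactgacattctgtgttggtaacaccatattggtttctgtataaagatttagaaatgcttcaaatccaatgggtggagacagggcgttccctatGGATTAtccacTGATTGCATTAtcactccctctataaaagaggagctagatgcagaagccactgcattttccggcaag
MBD3L3: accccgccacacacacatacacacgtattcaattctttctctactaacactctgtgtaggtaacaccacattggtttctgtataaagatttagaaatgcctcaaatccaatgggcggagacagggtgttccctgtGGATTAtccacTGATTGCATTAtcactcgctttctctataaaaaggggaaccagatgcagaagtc
PRAMEF12: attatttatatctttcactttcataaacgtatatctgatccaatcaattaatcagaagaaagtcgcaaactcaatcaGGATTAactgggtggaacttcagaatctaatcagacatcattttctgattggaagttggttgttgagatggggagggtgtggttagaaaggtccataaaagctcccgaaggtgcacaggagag
PRAMEF6: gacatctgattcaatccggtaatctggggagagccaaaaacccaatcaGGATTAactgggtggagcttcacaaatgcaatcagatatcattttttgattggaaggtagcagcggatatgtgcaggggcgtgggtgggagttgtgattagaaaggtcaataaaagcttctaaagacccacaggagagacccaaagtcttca
TRIM49C: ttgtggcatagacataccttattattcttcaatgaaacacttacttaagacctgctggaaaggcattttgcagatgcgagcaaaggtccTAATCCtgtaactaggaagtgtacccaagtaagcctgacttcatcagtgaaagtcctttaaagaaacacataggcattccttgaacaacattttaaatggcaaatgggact

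The ZSCAN4 window lies at chr19:57668735-57668934 on the plus strand and holds TAATCC once on each strand. The LEUTX window, at chr19:39778654-39778853 on the plus strand, belongs to the downstream start of the 2 that RefSeq lists and lies in an intron of the longer transcript. It holds both patterns, apart from each other. In H3Y1, at chr5:17655850-17656049 on the minus strand, both patterns fall on the same bases. MBD3L2 (chr19:7049121-7049320, plus strand) and MBD3L3 (chr19:7058677-7058876, minus strand) both have a TAATCC match a few bases before a DUX4-type match, with TATAAA downstream, and MBD3L2 has another TAATCC match near the far end. PRAMEF12 (chr1:12773538-12773737, plus strand) and PRAMEF6 (chr1:12947581-12947780, minus strand) have the TAATCC match inside a stretch that both promoters share, and TRIM49C (chr11:90030906-90031105, plus strand) has 1 TAATCC match.

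Counted by gene, TAATCC was found in a promoter of 25 of 39 members (64.1%), against 2132 of all 27305 genes in the same table (7.81%). The share was 40.0% of 10 single-copy genes and 72.41% of 29 multi-copy genes. The DUX4-type pattern was found in 13 of 39 members (33.33%), against 303 of 27305 genes (1.11%), with 30.0% of single-copy and 34.48% of multi-copy members. TATAAA was found in 15 of 39 members (38.46%) and in 8.99% of all genes. Promoters of near-identical copies share their sequence by descent, so the members are not independent of each other in these shares, and a match is a description of letters, not a binding site. Of the 39 members, 7 had both of the first pair of patterns, 6 the DUX4-type pattern alone, 18 TAATCC alone and 8 neither. The 8 with neither were CCNA1, SLC34A2, KHDC1, ZNF280A, DUXA, PRAMEF17, PRAMEF18 and RFPL4B.

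**Figure D1:**
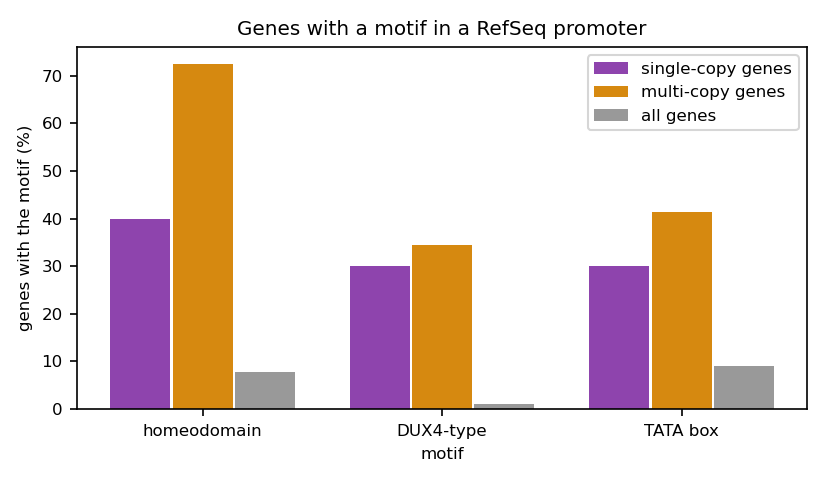
Share of genes (%, vertical axis) with each motif in at least 1 RefSeq promoter window, for 10 single-copy members, 29 multi-copy members and all 27305 genes of the table; homeodomain stands for TAATCC. For each motif both member bars are higher than the bar of all genes, which is at 7.81% (homeodomain), 1.11% (DUX4-type) and 8.99% (TATA box).

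EPZ against N2B27 compares the basal medium with and without the EZH2 inhibitor. The time in N2B27 is not given for the group without it, so inhibitor and time cannot be told apart. Counts were present for 50 of the 55 genes in at least 1 library, and 41 genes (all 12 single-copy and 29 multi-copy) passed the filter on low counts and were tested. Of these 41, 37 were higher in EPZ than in N2B27, none was lower and 4 were not called (edgeR quasi-likelihood test, Benjamini-Hochberg adjusted p under 0.05 over all 15179 genes tested). Among all 15179 genes, 14.2% were called higher and 10.6% lower, and without PXGL replicate 1, which enters the fit through the shared estimate of the spread, the number lower was 2786 in place of 1603. The called members were 10 of 12 single-copy genes and 27 of 29 multi-copy genes. Fitted folds of the called multi-copy genes lay between 2.62 for TRIM49D1 and 6.85 for PRAMEF20. The median log2 fold change over the 41 was 2.02 (2.16 for single-copy and 1.92 for multi-copy genes), beside 0.0073 over all genes tested. A gene counted mainly in EPZ can pass the filter through that group alone. The members were also chosen with earlier results known, so these counts beside all genes are a description. Over the 50 genes with any count, 42 had all 3 EPZ libraries above all 3 N2B27 libraries, which holds for 18% of the 22640 genes with any count.

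N2B27 against PXGL asks what leaving the naive medium changed. Here 31 of the 41 tested members were higher in N2B27 than in PXGL, 1 (ZNF280A) was lower and 9 were not called, while 27.3% of all tested genes were called higher and 28.7% lower. The median log2 fold change was 2.01, with 1.30 for single-copy and 2.23 for multi-copy genes, beside -0.028 over all genes tested. Of the 50 genes with any count, 33 had all N2B27 libraries above all PXGL libraries, as did 21.3% of all genes with any count. In EPZ against PXGL, 38 of 41 members were higher and none lower, with 28.1% of all genes called higher and 28% lower. Its median log2 fold change was 3.99 (3.28 for single-copy and 4.10 for multi-copy genes), and 43 of 50 genes did not overlap, against 23.1% of all genes. Without PXGL replicate 1, 46 members were tested, and 39 were higher in EPZ against N2B27, 35 in N2B27 against PXGL and 42 in EPZ against PXGL, beside 19.2%, 30.4% and 31.2% of all genes tested. Of these, 2, 3 and 4 were members not tested with all 9 libraries. Leaving that library out raised the fitted folds against PXGL of DUXA, PRAMEF13, PRAMEF15, PRAMEF28P and RFPL4A by more than 1.5 times in both comparisons, and moved those of the other 36 tested members by less. The 3 comparisons share libraries, so their values are set side by side and are not independent of one another.

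**Figure D2:**
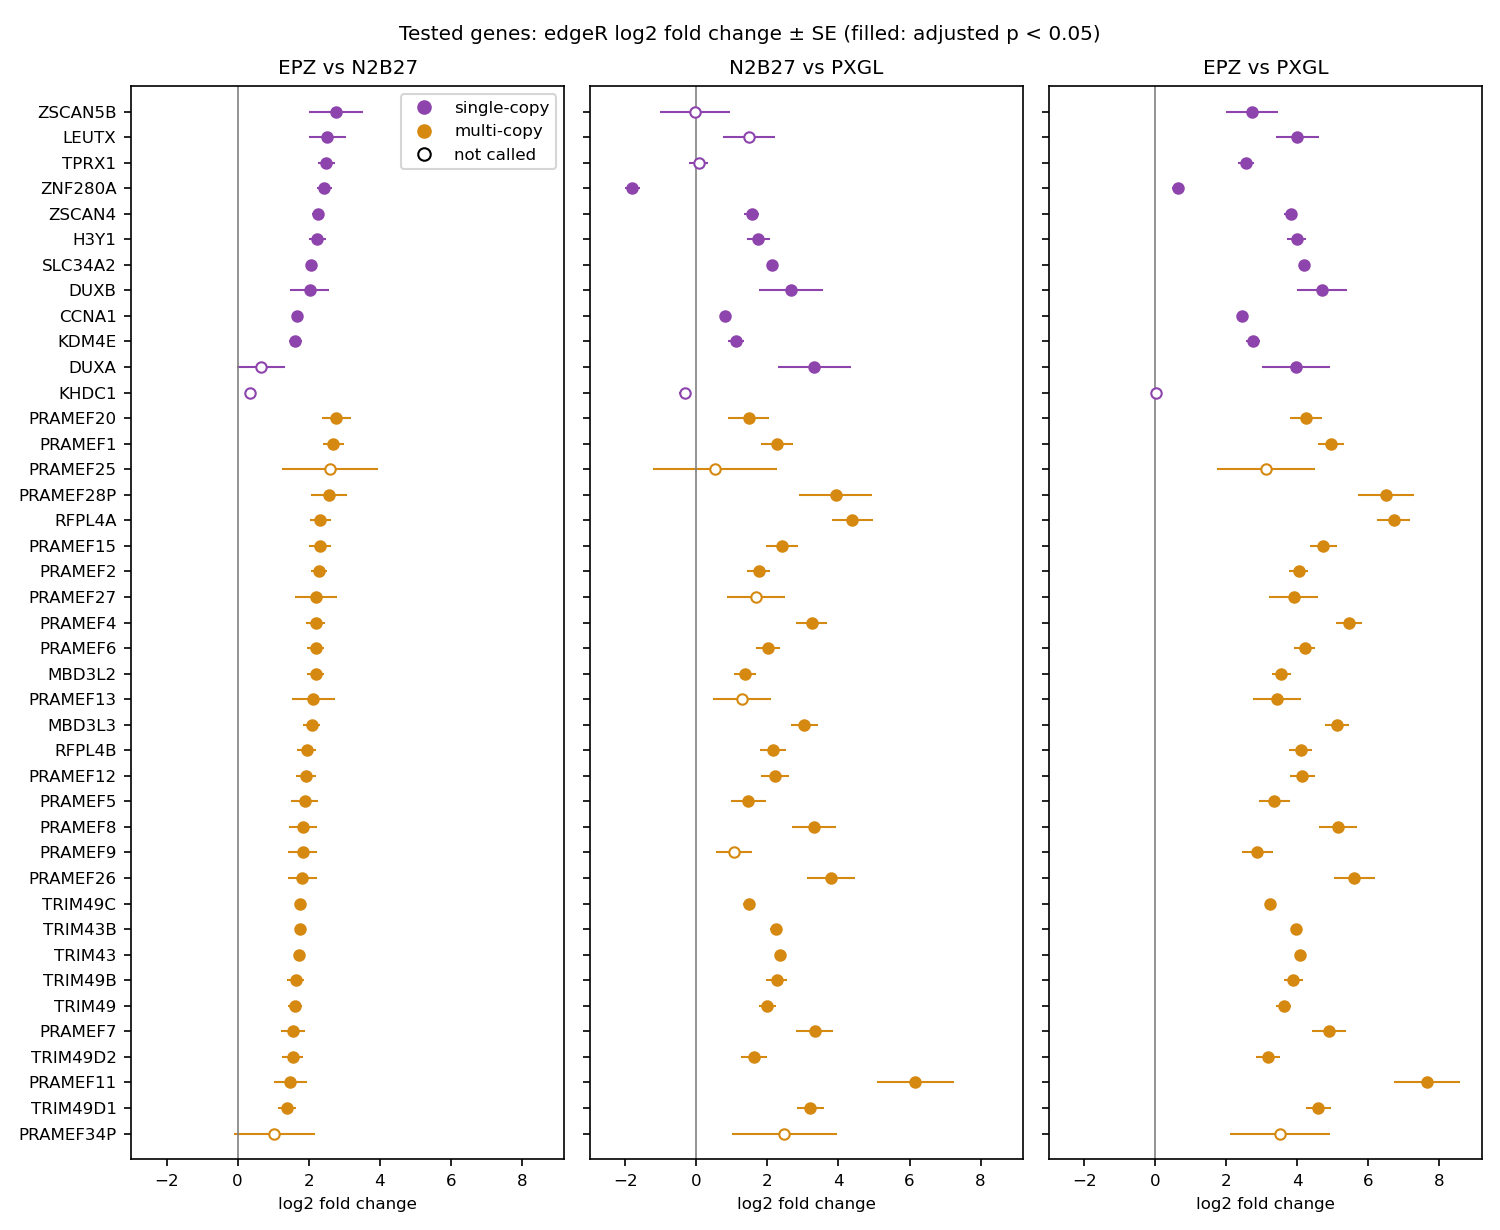
Log2 fold change (horizontal axes, ± SE) of the 41 tested members in each comparison, ordered by class and by EPZ against N2B27; filled points have adjusted p under 0.05 in edgeR's test. In EPZ against N2B27 all 41 points lie to the right of 0, and in N2B27 against PXGL ZNF280A is the filled point on the left. PRAMEF11 had no count in PXGL, so its points against PXGL depend on the prior count and are not a bound.

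Summed over the 12 single-copy genes, the level was 330.0 ± 8.29 CPM in EPZ, 96.5 ± 4.07 CPM in N2B27 and 60.4 ± 3.06 CPM in PXGL (mean ± SD, n = 3 each). Over the 43 multi-copy genes it was 358 ± 12.1 CPM in EPZ, 102 ± 6.32 CPM in N2B27 and 24.1 ± 6.25 CPM in PXGL. CCNA1 gave most of the counts in the single-copy sum.

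Among the transcription factor genes, ZSCAN4 (chr19:57668935-57679152, GENCODE 29 on GRCh38), a zinc finger protein with a SCAN domain and the gene most used to mark the 8-cell-like state, rose in EPZ. ZSCAN4 had 18.05, 18.4 and 16.4 CPM in EPZ, 3.48, 3.94 and 3.67 CPM in N2B27 and 0.987, 1.53 and 1.22 CPM in PXGL. No library of any group overlapped another group, and ZSCAN4 was 4.76-fold higher in EPZ than in N2B27 (log2 fold change 2.25 ± 0.16 SE, adjusted p = 3.25e-08, edgeR). N2B27 was above PXGL by a log2 of 1.56 ± 0.21 (adjusted p = 8.90e-06, edgeR). The paired-like homeobox gene TPRX1 (chr19:47801243-47819051) was higher in EPZ than in N2B27. TPRX1 had 20.3, 13.4 and 15.8 CPM in EPZ, 2.58, 2.81 and 3.33 CPM in N2B27 and 3.07, 3.62 and 1.67 CPM in PXGL. The log2 fold change was 2.50 ± 0.24 for EPZ against N2B27 (adjusted p = 8.24e-07, edgeR) and 0.06 ± 0.27 for N2B27 against PXGL, which did not pass (adjusted p = 0.857).

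LEUTX (chr19:39776595-39786167), a homeobox activator of the same paired-like kind, was low and variable outside EPZ. LEUTX had 5.64, 3.83 and 3.25 CPM in EPZ, 0.139, 0.563 and 1.47 CPM in N2B27 and 0.0548, 0.493 and 0.222 CPM in PXGL. All EPZ libraries were above the others, with a log2 fold change of 2.52 ± 0.53 against N2B27 (adjusted p = 0.00206, edgeR), while N2B27 and PXGL overlapped. For N2B27 against PXGL the adjusted p was 0.0926 with edgeR and 0.0431 with DESeq2, and 0.0214 in edgeR without N2B27 replicate 1 and 0.0362 without PXGL replicate 2. The double homeobox genes DUXA (chr19:57154021-57167443) and DUXB (chr16:75693929-75701459), relatives of DUX4, were close to the counting floor. DUXA had 1.34, 1.03 and 0.542 CPM in EPZ, 0.0696, 0.773 and 1.0003 CPM in N2B27 and 0.165, 0 and 0 CPM in PXGL. DUXA overlapped between EPZ and N2B27 and was not called there (log2 fold change 0.65 ± 0.68, adjusted p = 0.524, edgeR). With 45 counts in EPZ and 3 in PXGL, its ratio was 17.7 (95% exact counting interval 5.69 to 89.2), and with 27 counts in N2B27 the ratio to PXGL was 11.3 (3.46 to 58.0). The call of DUXA in N2B27 against PXGL (adjusted p = 0.0115, edgeR) was lost without N2B27 replicate 3, at adjusted p = 0.0692.

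DUXB had 1.07, 1.34 and 1.02 CPM in EPZ, 0.279, 0.352 and 0.200 CPM in N2B27 and 0.0548, 0.0548 and 0 CPM in PXGL. DUXB was higher in EPZ than in N2B27 without overlap (log2 fold change 2.02 ± 0.54, adjusted p = 0.0109, edgeR), a call that was lost without EPZ replicate 2 (adjusted p = 0.0511) or N2B27 replicate 3 (0.0575). Against 2 counts in PXGL, the ratio was 31.3 for the 53 counts in EPZ (interval 8.25 to 265) and 7.50 for the 12 counts in N2B27 (interval 1.67 to 69.0). The call of DUXB in N2B27 against PXGL (adjusted p = 0.0179) was lost without N2B27 replicate 2 (0.0556) or PXGL replicate 3 (0.0708). ZSCAN5B (chr19:56189570-56197920), a zinc finger gene with a SCAN domain, was at or near the floor outside EPZ. ZSCAN5B had 1.21, 1.52 and 0.678 CPM in EPZ, 0, 0.281 and 0.200 CPM in N2B27 and 0.274, 0.219 and 0 CPM in PXGL. It was called higher in EPZ than in N2B27 (log2 fold change 2.77 ± 0.77, adjusted p = 0.0143, edgeR), and the adjusted p was 0.0501 without EPZ replicate 1, 0.0712 without EPZ replicate 2 and 0.0680 without N2B27 replicate 1. Between N2B27 and PXGL its log2 fold change was -0.04 ± 0.99 (adjusted p = 0.977).

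ZNF280A (chr22:22513736-22520270), a zinc finger gene, was the 1 member that was lower in N2B27 than in PXGL. ZNF280A had 13.1, 9.30 and 13.2 CPM in EPZ, 2.51, 2.11 and 1.93 CPM in N2B27 and 6.86, 8.93 and 7.05 CPM in PXGL. The 3 groups did not overlap, with N2B27 lowest. Its log2 fold change was 2.44 ± 0.21 in EPZ against N2B27 (adjusted p = 2.27e-07), -1.80 ± 0.21 in N2B27 against PXGL (adjusted p = 1.84e-06) and 0.64 ± 0.17 in EPZ against PXGL (adjusted p = 0.00494, edgeR for all 3).

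Of the single-copy members, KDM4E and H3Y1 act on or in chromatin. KDM4E (chr11:95025258-95027596), a lysine demethylase of the KDM4 family that acts on histone H3 lysine 9, rose in EPZ. KDM4E had 12.4, 13.9 and 14.1 CPM in EPZ, 5.29, 3.38 and 4.40 CPM in N2B27 and 2.30, 2.08 and 1.61 CPM in PXGL. The groups did not overlap, and the log2 fold change was 1.63 ± 0.18 in EPZ against N2B27 (adjusted p = 5.82e-06) and 1.12 ± 0.22 in N2B27 against PXGL (adjusted p = 0.000333, edgeR). H3Y1 (chr5:17654868-17655849, RefSeq), a primate histone H3 variant, did so too. H3Y1 had 12.3, 11.4 and 11.6 CPM in EPZ, 3.13, 2.67 and 1.67 CPM in N2B27 and 0.768, 0.438 and 0.9995 CPM in PXGL. EPZ was above N2B27 by a log2 of 2.24 ± 0.23 (adjusted p = 2.35e-06) and N2B27 above PXGL by 1.75 ± 0.31 (adjusted p = 0.000163, edgeR), with no overlap between any groups.

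The most abundant member per length was CCNA1 (chr13:36431520-36442882), a cyclin that is best known from the germ line. CCNA1 had 191, 198 and 213 CPM in EPZ, 65.0, 60.8 and 64.4 CPM in N2B27 and 40.9, 33.0 and 35.8 CPM in PXGL. Per kilobase of transcript this was 107 CPM in EPZ, against 7.85 for ZSCAN4, 10.7 for SLC34A2 and 30.9 for TRIM43B. The groups did not overlap in CCNA1, and N2B27 stood above PXGL by a log2 of 0.79 ± 0.08 (adjusted p = 4.34e-07, edgeR), and EPZ above N2B27 by 1.66 ± 0.08 (adjusted p = 3.01e-10). SLC34A2 (chr4:25648011-25678748) encodes a sodium-phosphate cotransporter that is also a lung epithelial gene. SLC34A2 had 43.5, 46.2 and 43.0 CPM in EPZ, 12.0, 9.14 and 10.4 CPM in N2B27 and 2.14, 2.57 and 2.499 CPM in PXGL. The groups were separate, and N2B27 was above PXGL by 2.12 ± 0.15 on the log2 scale (adjusted p = 3.62e-09, edgeR). The lung epithelial markers SFTPB and SFTPC had no count in any library, and summed over the 5 lung markers the level was 0.813 to 1.89 CPM in EPZ, 0.867 to 1.39 CPM in N2B27 and 2.44 to 3.07 CPM in PXGL.

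KHDC1 (chr6:73241314-73310365), a KH-domain gene expressed in oocytes and early embryos, did not pass the test in any comparison. KHDC1 had 6.44, 6.51 and 7.12 CPM in EPZ, 5.01, 5.06 and 5.53 CPM in N2B27 and 6.25, 6.52 and 6.83 CPM in PXGL. All EPZ libraries were above all N2B27 libraries, by a log2 of 0.36 ± 0.16 (adjusted p = 0.117). The log2 fold change was -0.33 ± 0.16 in N2B27 against PXGL (adjusted p = 0.0907) and 0.03 ± 0.15 in EPZ against PXGL (adjusted p = 0.87, edgeR), where the groups overlapped. All N2B27 libraries were below all PXGL libraries.

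**Figure D3:**
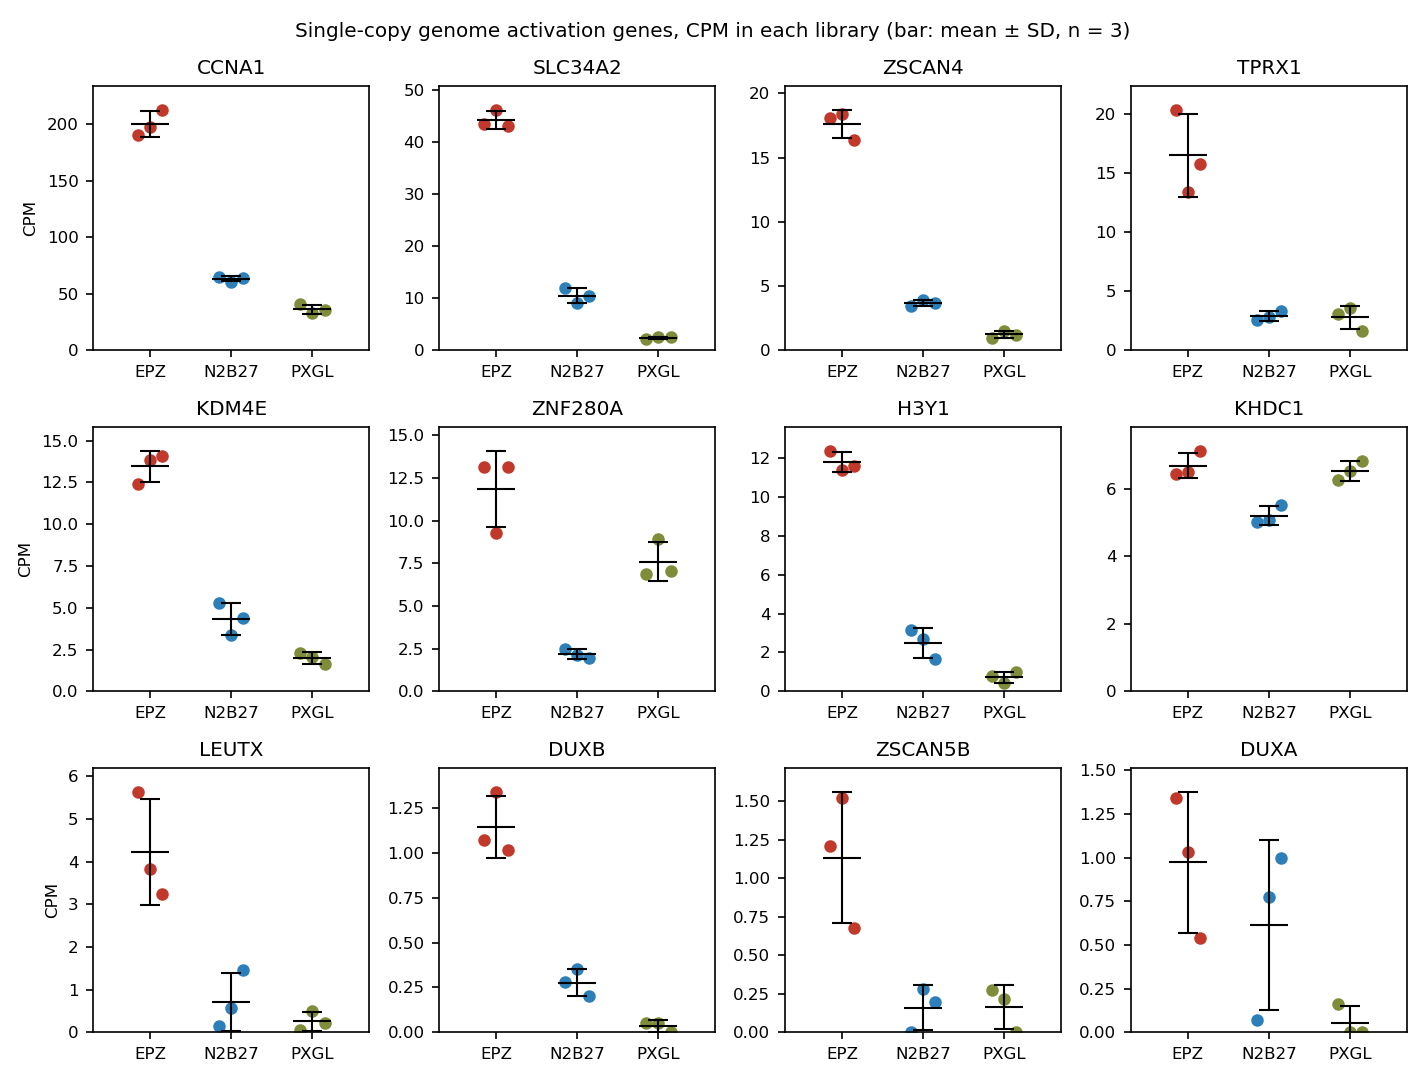
CPM (vertical axes, from 0, own scale in each panel) of the 12 single-copy genes in each of the 9 libraries; bars show mean ± SD of 3 libraries. In ZSCAN4, SLC34A2, KDM4E, H3Y1 and CCNA1 the groups step down without overlap, in TPRX1 N2B27 and PXGL lie together below EPZ, in ZNF280A N2B27 is lowest, and in KHDC1 all 3 groups lie between 5.01 and 7.12 CPM.

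The multi-copy families were compared by their sums, since a sum does not depend on how reads were divided among the genes in it. It still depends on the split with genes outside the list, among them MBD3L2B, the closest partner of MBD3L2, and RFPL4AL1, that of RFPL4A. RFPL4B shares 35.1% of its 50-base stretches, with AL365214.3 as its closest partner, and its counts were whole in all 9 libraries. MBD3L2B averaged 5.13 CPM in EPZ, 1.54 CPM in N2B27 and 0.350 CPM in PXGL, and RFPL4AL1 3.84 CPM in EPZ, 0.757 CPM in N2B27 and 0.123 CPM in PXGL. All 5 sums were higher in EPZ than in N2B27, higher in N2B27 than in PXGL and higher in EPZ than in PXGL (edgeR), with no overlap between groups. Of all genes tested singly, 14.2%, 27.3% and 28.1% were called higher in the same order. Of all genes with any count, 18%, 21.3% and 23.1% had all 3 libraries above those of the other group. The PRAMEF genes lie in a cluster on chromosome 1, and the coding ones encode leucine-rich repeat proteins related to the tumour antigen PRAME. Of the 30 in the sum, 8 are annotated pseudogenes, 4 of them with counts. The PRAMEF sum was 108, 103 and 101 CPM in EPZ, 25.1, 22.6 and 28.7 CPM in N2B27 and 7.08, 5.53 and 5.11 CPM in PXGL. EPZ was 4.09-fold above N2B27 (log2 2.03 ± 0.10, adjusted p = 5.60e-10) and N2B27 was 4.31-fold above PXGL (adjusted p = 3.90e-10).

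The sum of TRIM43 and TRIM43B, tripartite motif proteins encoded on chromosome 2, was 95.1, 92.8 and 98.8 CPM in EPZ, 28.2, 29.7 and 28.3 CPM in N2B27 and 6.97, 5.20 and 5.39 CPM in PXGL. N2B27 was 4.90-fold above PXGL (log2 2.29 ± 0.11, adjusted p = 2.32e-11), and EPZ against N2B27 gave a log2 of 1.74 ± 0.09 (adjusted p = 6.42e-10). The 5 TRIM49 genes, of the same protein class on chromosome 11, summed to 122, 119 and 113 CPM in EPZ, 37.8, 34.8 and 41.7 CPM in N2B27 and 14.5, 8.93 and 7.33 CPM in PXGL. EPZ was 3.09-fold above N2B27 (adjusted p = 3.80e-06) and N2B27 3.72-fold above PXGL (adjusted p = 6.73e-07), and PXGL replicate 1 was the highest of its group.

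The MBD3L genes on chromosome 19 are related to MBD3, a methyl-CpG-binding domain protein of the NuRD complex, and the primate-specific copies are known DUX4 targets. Their sum was 33.4, 22.1 and 25.4 CPM in EPZ, 8.08, 5.13 and 5.40 CPM in N2B27 and 2.36, 1.31 and 1.39 CPM in PXGL. Its coefficient of variation was 21.6% in EPZ, 26.2% in N2B27 and 34.5% in PXGL, with replicate 1 the highest in each group. The sum in EPZ was 4.34-fold above N2B27 (adjusted p = 1.12e-06), which was 3.66-fold above PXGL (adjusted p = 1.59e-05). RFPL4A (chromosome 19) and RFPL4B (chromosome 6), ret finger protein-like genes, summed to 13.4, 12.9 and 13.7 CPM in EPZ, 2.23, 3.09 and 3.80 CPM in N2B27 and 0.384, 0.548 and 0.389 CPM in PXGL. They were 4.36-fold higher in EPZ than in N2B27 (adjusted p = 6.50e-07) and 6.82-fold higher in N2B27 than in PXGL (adjusted p = 5.82e-07, edgeR for all family sums). Without PXGL replicate 1, N2B27 was 4.79-fold above PXGL for PRAMEF, 5.42-fold for TRIM43, 4.69-fold for TRIM49, 4.57-fold for MBD3L and 6.41-fold for RFPL4.

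**Figure D4:**
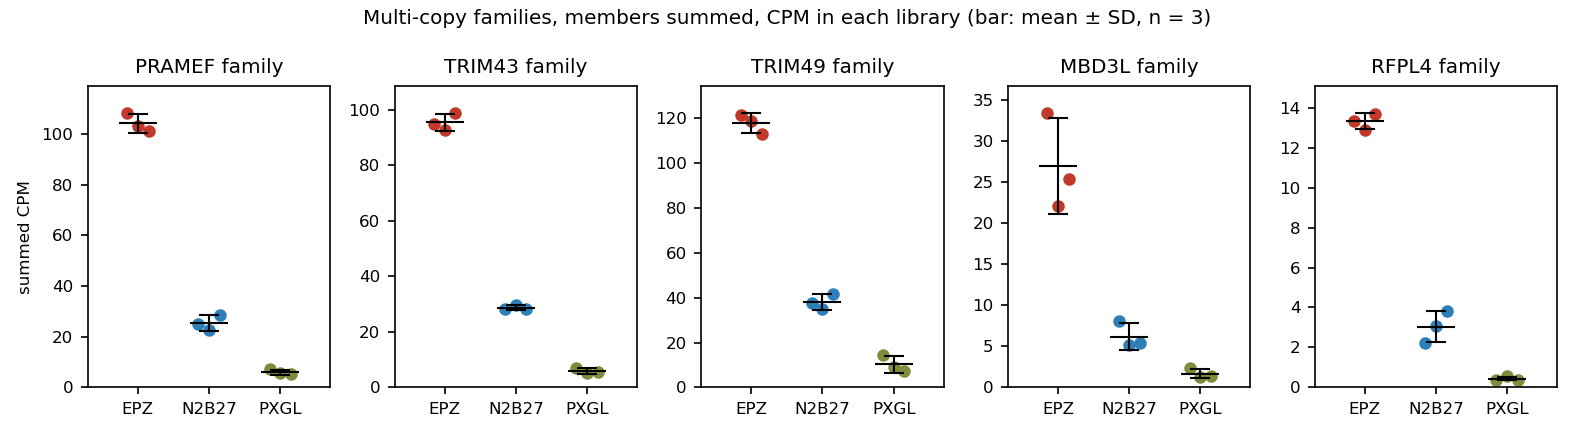
Summed CPM (vertical axes, from 0, own scale in each panel) of the 5 multi-copy families in each library; bars show mean ± SD of 3 libraries. In every family the 3 EPZ libraries lie above the 3 N2B27 libraries, which lie above the 3 PXGL libraries, and the EPZ libraries of MBD3L spread from 22.1 to 33.4 CPM.

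Within the PRAMEF family, 18 of 30 genes were tested, of which 16 were higher in EPZ than in N2B27 and 2 were not called. Of all genes tested, 14.2% were called higher. The nearly unique PRAMEF12 (chr1:12774841-12777906) and PRAMEF20 (chr1:13410450-13421328) had whole counts in every library. PRAMEF12 had 9.12, 5.59 and 6.03 CPM in EPZ, 1.74, 2.32 and 1.40 CPM in N2B27 and 0.548, 0.383 and 0.222 CPM in PXGL. PRAMEF20 had 4.16, 4.50 and 3.25 CPM in EPZ, 0.696, 0.422 and 0.600 CPM in N2B27 and 0.0548, 0.383 and 0.167 CPM in PXGL. Neither overlapped between EPZ and N2B27, with log2 fold changes of 1.92 ± 0.29 (adjusted p = 0.000106) and 2.78 ± 0.41 (adjusted p = 8.64e-05, edgeR). In N2B27 against PXGL, PRAMEF12 had a log2 fold change of 2.21 ± 0.40 (adjusted p = 0.000168) and PRAMEF20 one of 1.47 ± 0.57 (adjusted p = 0.038). The PRAMEF20 call was lost without any 1 of EPZ replicates 1 and 2, N2B27 replicates 1 and 3 and PXGL replicates 1 and 3, with adjusted p from 0.0538 to 0.136.

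The other tested coding PRAMEF genes share between 40.6% and 100% of their 50-base stretches, so their single values carry an uncertain split. PRAMEF6 is 92.9% shared. PRAMEF6 had 14.9, 12.8 and 11.4 CPM in EPZ, 2.37, 2.04 and 4.07 CPM in N2B27 and 0.823, 0.877 and 0.389 CPM in PXGL. PRAMEF5 had 2.88, 4.07 and 5.08 CPM in EPZ, 0.766, 0.844 and 1.60 CPM in N2B27 and 0.439, 0.548 and 0.167 CPM in PXGL. PRAMEF5, which shares 93.0% and has PRAMEF6 as its closest partner, also had no overlap between groups, and its call in N2B27 against PXGL was lost without N2B27 replicate 3 (adjusted p = 0.115) or PXGL replicate 3 (0.0664). PRAMEF2 had 9.79, 9.79 and 7.05 CPM in EPZ, 1.74, 1.69 and 2.00 CPM in N2B27 and 0.713, 0.383 and 0.500 CPM in PXGL. PRAMEF1 had 8.25, 7.05 and 7.52 CPM in EPZ, 1.60, 1.27 and 0.667 CPM in N2B27 and 0.165, 0.383 and 0.167 CPM in PXGL. In both, EPZ was above N2B27 and N2B27 above PXGL in every library. PRAMEF4 had 6.84, 6.93 and 6.58 CPM in EPZ, 1.46, 1.13 and 1.80 CPM in N2B27 and 0.219, 0.0548 and 0.167 CPM in PXGL. PRAMEF15 had 6.91, 6.63 and 6.10 CPM in EPZ, 1.67, 0.844 and 1.40 CPM in N2B27 and 0.439, 0.110 and 0.167 CPM in PXGL. PRAMEF7 had 5.17, 5.29 and 4.88 CPM in EPZ, 2.23, 1.76 and 1.20 CPM in N2B27 and 0.165, 0.329 and 0 CPM in PXGL. These 3 also stepped down from EPZ over N2B27 to PXGL with no overlap, and the log2 fold change of EPZ against N2B27 was 2.20 ± 0.27 for PRAMEF4, 2.32 ± 0.31 for PRAMEF15 and 1.56 ± 0.34 for PRAMEF7.

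PRAMEF8 had 3.76, 5.41 and 3.39 CPM in EPZ, 0.696, 0.773 and 2.00 CPM in N2B27 and 0.165, 0.110 and 0.0555 CPM in PXGL. PRAMEF9 had 2.82, 3.65 and 2.58 CPM in EPZ, 0.836, 0.422 and 1.27 CPM in N2B27 and 0.603, 0.383 and 0.222 CPM in PXGL. PRAMEF8 was called in all 3 comparisons, while PRAMEF9 was not called between N2B27 and PXGL (adjusted p = 0.087, and 0.0319 without N2B27 replicate 2 and 0.0320 without PXGL replicate 1). PRAMEF13 had 1.21, 2.19 and 2.71 CPM in EPZ, 0.557, 0.492 and 0.333 CPM in N2B27 and 0.494, 0.0548 and 0 CPM in PXGL. PRAMEF27 had 2.82, 3.34 and 3.19 CPM in EPZ, 0.975, 0.563 and 0.467 CPM in N2B27 and 0, 0 and 0.611 CPM in PXGL. Both overlapped between N2B27 and PXGL and were called in EPZ against N2B27 (adjusted p = 0.0169 for PRAMEF13 and 0.0119 for PRAMEF27, edgeR). The call of PRAMEF13 was lost in edgeR when any EPZ or N2B27 library but EPZ replicate 1 was left out (adjusted p 0.0523 to 0.0884), and that of PRAMEF27 with DESeq2 (0.144) or without N2B27 replicate 2 (0.0514) or 3 (0.0603). In N2B27 against PXGL, PRAMEF13 was called without PXGL replicate 1 (0.00321) and PRAMEF27 without PXGL replicate 3 (0.000178). PRAMEF11 had 1.54, 1.52 and 1.63 CPM in EPZ, 0.696, 0.633 and 0.333 CPM in N2B27 and 0, 0 and 0 CPM in PXGL. PRAMEF11 had 72 counts in EPZ, 24 in N2B27 and none in PXGL. With 3 counts taken as the floor for the whole PXGL group, PRAMEF11 was 28.4-fold higher in EPZ and 10.004-fold higher in N2B27. Counting error in EPZ and N2B27 is not covered by these folds of PRAMEF11. Its call in EPZ against N2B27 (log2 fold change 1.49 ± 0.47, adjusted p = 0.0306, edgeR) was lost without any 1 library of these groups (0.0591 to 0.128) and without the low-count filter (0.0679).

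The annotated pseudogene PRAMEF28P was counted as well. PRAMEF28P had 2.15, 2.31 and 2.58 CPM in EPZ, 0.279, 0.141 and 0.734 CPM in N2B27 and 0.0548, 0 and 0 CPM in PXGL. Its log2 fold change in EPZ against N2B27 was 2.57 ± 0.51 (adjusted p = 0.00139, edgeR), and in PXGL it had 1 count, for a ratio of 128 in EPZ (interval 22.4 to 5089). Of the 14 genes that were not tested, all PRAMEF or MBD3L genes, 5 had no count in any library (MBD3L5, PRAMEF29P, PRAMEF30P, PRAMEF32P and PRAMEF35P). The other 9 had 1 to 206 counts in all, with PRAMEF36P the highest. PRAMEF10 had 44 counts in EPZ, 10 in N2B27 and none in PXGL. With 3 counts taken as the floor for the whole PXGL group, PRAMEF10 was 17.3-fold higher in EPZ than in PXGL. Counting error in EPZ is not covered by this fold of PRAMEF10, and the exact counting interval for EPZ against PXGL began at 13.5-fold. PRAMEF33 had 32 counts in EPZ, 7 in N2B27 and 2 in PXGL. PRAMEF14 had 41, PRAMEF19 had 21, PRAMEF18 had 13 and PRAMEF17 had 11 counts in EPZ, against 14, 6, 4 and 1 in N2B27 and 6, 9, 5 and 1 in PXGL.

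The single values of the closest copies depend on how reads were divided between them. PRAMEF34P (chr1:13095179-13097971) and PRAMEF36P (chr1:13128818-13131615), annotated pseudogenes, share an identical run of 1447 bases, which is the whole of the PRAMEF34P transcript. PRAMEF34P had 14.1, 0 and 15.3 CPM in EPZ, 4.60, 4.29 and 5.27 CPM in N2B27 and 0.932, 0 and 1.61 CPM in PXGL. PRAMEF36P had 0, 11.4 and 0 CPM in EPZ, 0, 0 and 0 CPM in N2B27 and 0, 1.04 and 0 CPM in PXGL. In EPZ replicate 2 and PXGL replicate 2 nearly all counts fell to PRAMEF36P, and in the other 7 libraries to PRAMEF34P. PRAMEF36P was not tested, and PRAMEF34P was not called in EPZ against N2B27 (adjusted p = 0.57, edgeR), while without EPZ replicate 2 it was (0.0154). The expected counts of both together, before rounding, came to 14.1, 11.4 and 15.2 CPM in EPZ, 4.59, 4.30 and 5.28 CPM in N2B27 and 0.932, 1.04 and 1.59 CPM in PXGL, with no overlap between groups. Summing lowered the coefficient of variation within EPZ to 14.6%, against 86.8% for PRAMEF34P alone.

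PRAMEF25 had 0, 3.16 and 3.25 CPM in EPZ, 0, 1.05 and 0 CPM in N2B27 and 0.329, 0 and 0.389 CPM in PXGL. PRAMEF26 had 8.45, 4.07 and 4.75 CPM in EPZ, 1.04, 1.13 and 2.67 CPM in N2B27 and 0.110, 0.219 and 0 CPM in PXGL. PRAMEF25 and PRAMEF26 share an identical run of 1801 of 1863 bases, and PRAMEF25 was listed at 0 in EPZ replicate 1, where PRAMEF26 was highest. PRAMEF26 was called in EPZ against N2B27 (log2 fold change 1.82 ± 0.40, adjusted p = 0.00307), and PRAMEF25 was not (adjusted p = 0.2, edgeR), but was without EPZ replicate 1 (0.0308) or N2B27 replicate 2 (0.0460). Together they came to 8.47, 7.23 and 7.96 CPM in EPZ, 1.07, 2.15 and 2.64 CPM in N2B27 and 0.462, 0.218 and 0.389 CPM in PXGL. The sum did not overlap between groups, and its coefficient of variation within EPZ was 7.91%.

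The coding sequences show how close the copies are in the other families. The first 100 coding bases from GENCODE 29 transcripts are given here, with capitals where a base differs from the first gene of its family in the list:
TRIM43: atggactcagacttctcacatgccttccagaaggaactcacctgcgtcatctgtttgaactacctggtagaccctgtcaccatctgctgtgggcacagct
TRIM43B: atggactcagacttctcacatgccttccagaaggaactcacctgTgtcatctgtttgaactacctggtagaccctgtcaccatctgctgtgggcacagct
TRIM49: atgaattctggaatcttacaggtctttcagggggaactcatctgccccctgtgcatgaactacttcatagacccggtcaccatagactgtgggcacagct
TRIM49C: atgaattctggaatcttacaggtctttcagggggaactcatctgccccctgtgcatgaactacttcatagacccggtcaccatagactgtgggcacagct
TRIM49D1: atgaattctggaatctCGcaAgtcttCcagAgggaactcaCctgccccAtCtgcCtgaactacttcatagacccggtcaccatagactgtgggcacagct
TRIM49D2: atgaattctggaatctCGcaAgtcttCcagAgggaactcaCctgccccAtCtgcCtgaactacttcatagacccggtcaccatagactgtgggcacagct

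TRIM43 (chr2:95592018-95599778) and TRIM43B (chr2:95476967-95484731) differ at 1 of these 100 bases, and their longest identical run in the whole transcript was 733 bases. TRIM43 had 47.6, 39.8 and 44.5 CPM in EPZ, 13.0, 14.2 and 13.0 CPM in N2B27 and 2.74, 2.36 and 2.67 CPM in PXGL. TRIM43B had 47.5, 53.0 and 54.2 CPM in EPZ, 15.2, 15.5 and 15.3 CPM in N2B27 and 4.22, 2.85 and 2.72 CPM in PXGL. Neither gene overlapped between groups, and the log2 fold change of EPZ against N2B27 was 1.72 ± 0.11 for TRIM43 and 1.75 ± 0.12 for TRIM43B. TRIM49 and TRIM49C are identical over the stretch, and TRIM49D1 and TRIM49D2 differ from TRIM49 at 9 of the 100 bases but not from each other. TRIM49 had 28.4, 27.4 and 24.1 CPM in EPZ, 8.01, 7.52 and 10.47 CPM in N2B27 and 3.35, 1.48 and 1.67 CPM in PXGL. TRIM49C had 44.6, 41.7 and 41.5 CPM in EPZ, 14.5, 12.0 and 11.2 CPM in N2B27 and 5.98, 3.94 and 3.55 CPM in PXGL. TRIM49B had 16.0, 13.4 and 16.7 CPM in EPZ, 4.18, 3.59 and 7.07 CPM in N2B27 and 1.48, 0.877 and 0.722 CPM in PXGL. These 3 were higher in EPZ than in N2B27, by log2 1.62 ± 0.19 for TRIM49, 1.76 ± 0.14 for TRIM49C and 1.63 ± 0.23 for TRIM49B (adjusted p = 8.51e-06, 1.14e-07 and 5.30e-05, edgeR).

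TRIM49D1 had 20.4, 14.7 and 11.9 CPM in EPZ, 3.41, 7.80 and 6.74 CPM in N2B27 and 0.987, 0.438 and 0.500 CPM in PXGL. TRIM49D2 had 12.1, 21.6 and 18.8 CPM in EPZ, 7.73, 3.87 and 6.27 CPM in N2B27 and 2.69, 2.19 and 0.888 CPM in PXGL. Where TRIM49D1 was high within EPZ, TRIM49D2 was low, and the sum of both was 33.2 ± 2.85 CPM in EPZ, 11.9 ± 0.960 CPM in N2B27 and 2.56 ± 1.14 CPM in PXGL (SD, n = 3 each). All 1651 bases of the TRIM49D2 transcript are found unbroken in TRIM49D1. The coefficient of variation within EPZ was 27.4% for TRIM49D1, 27.6% for TRIM49D2 and 8.60% for the sum.

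**Figure D5:**
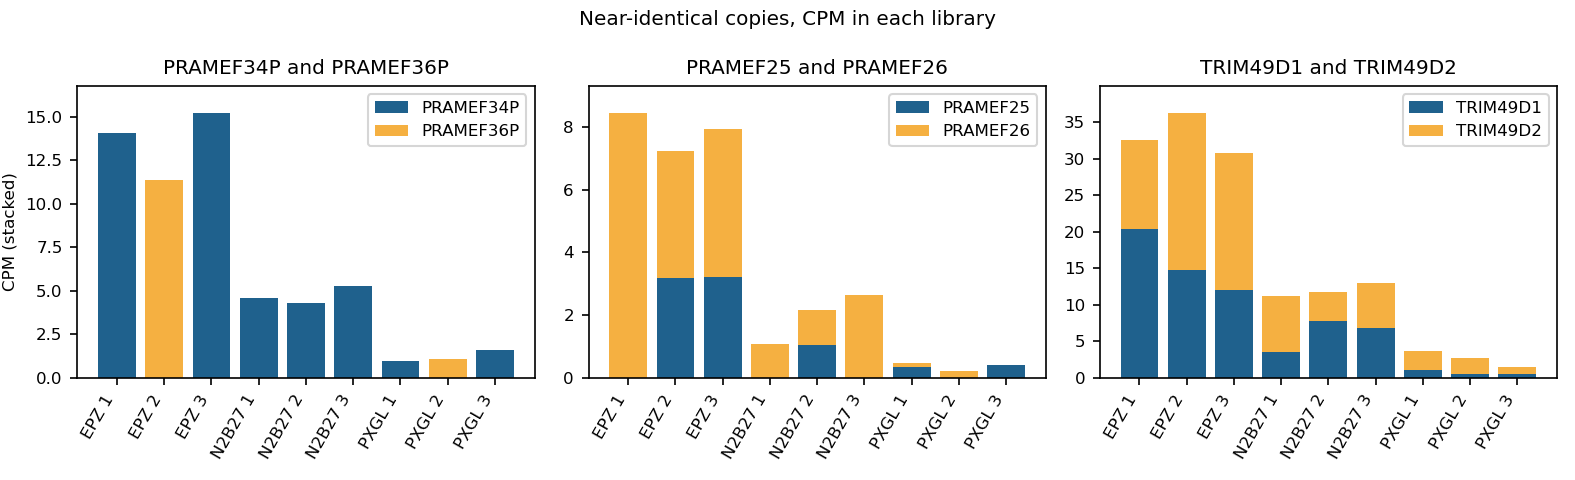
Stacked CPM (vertical axes, from 0) of 3 pairs of near-identical copies in each of the 9 libraries, before rounding. In EPZ 2 and PXGL 2 the PRAMEF34P and PRAMEF36P bar changes colour, and in all 3 pairs the stacked EPZ bars are higher than every N2B27 bar.

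MBD3L2 had 18.9, 9.85 and 13.0 CPM in EPZ, 3.83, 2.67 and 2.60 CPM in N2B27 and 1.37, 0.986 and 1.17 CPM in PXGL. MBD3L3 had 14.2, 10.7 and 12.1 CPM in EPZ, 4.18, 1.76 and 2.80 CPM in N2B27 and 0.494, 0.329 and 0.222 CPM in PXGL. MBD3L2 (chr19:7049321-7051735) and MBD3L3 (chr19:7056209-7058640) share 90.1% and 93.1% of their 50-base stretches with another gene. Their log2 fold changes were 2.19 ± 0.24 and 2.08 ± 0.25 in EPZ against N2B27, and 1.36 ± 0.31 and 3.03 ± 0.38 in N2B27 against PXGL. MBD3L4, whose transcript is shared in full, had 33 counts in EPZ, 12 in N2B27 and 9 in PXGL and was not tested. RFPL4A had 6.44, 5.84 and 7.52 CPM in EPZ, 0.905, 1.62 and 1.40 CPM in N2B27 and 0.110, 0.0548 and 0 CPM in PXGL. RFPL4B had 6.91, 7.05 and 6.17 CPM in EPZ, 1.32, 1.48 and 2.40 CPM in N2B27 and 0.274, 0.493 and 0.389 CPM in PXGL. RFPL4A (chr19:55759014-55763175) and RFPL4B (chr6:112347330-112351296) were both higher in EPZ than in N2B27, with log2 fold changes of 2.33 ± 0.30 (adjusted p = 1.97e-05) and 1.94 ± 0.26 (adjusted p = 3.98e-05, edgeR). RFPL4A had 303 counts in EPZ, 57 in N2B27 and 3 in PXGL, a ratio to PXGL of 119 in EPZ (95% exact counting interval 40.5 to 582) and of 23.8 in N2B27 (7.73 to 119).

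The calls of EPZ against N2B27 can be set beside the promoter matches. Of the 39 members with a promoter, 32 were tested, and 14.2% of all tested genes were called higher. Higher in EPZ were 5 of 5 tested members with both patterns, 6 of 6 with the DUX4-type pattern alone, 15 of 15 with TAATCC alone and 4 of 6 with neither. Not tested for low counts were 2 with both patterns, 3 with TAATCC alone and 2 with neither, so these counts are a description of the tested members and no support for a link. The 4 called with neither were CCNA1, SLC34A2, ZNF280A and RFPL4B. The median log2 fold changes of the tested members were 2.24, 1.60, 2.13 and 1.80 in the same order.

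Other genes of the activation wave were read from a list of 28 symbols, 1 of which, TRIM49B, is also a member. Of 15 tested, 11 were higher in EPZ than in N2B27, none lower and 4 not called, with a median log2 fold change of 1.63. Of all genes tested, 14.2% were called higher and 10.6% lower, and the list was chosen with earlier results known. TPRX2, a close relative of TPRX1 in the same homeobox cluster, was 11.6-fold higher (log2 3.54 ± 0.51, adjusted p = 7.92e-05) and ARGFX, another paired-like homeobox gene, 3.55-fold (adjusted p = 0.00101, edgeR). TPRX2 had 3.42, 2.25 and 3.39 CPM in EPZ, 0.348, 0.281 and 0.133 CPM in N2B27 and 0.165, 0.219 and 0.611 CPM in PXGL. TPRX1 shares 12.6% of its 50-base stretches with another gene, with TPRX2P as its closest partner, and 3 of its 9 values were not whole. TPRX2 and ARGFX did not pass the test between N2B27 and PXGL (adjusted p = 0.642 for TPRX2 and 0.266 for ARGFX), as TPRX1 did not. H3Y2, the neighbour in kind of H3Y1, was 2.72-fold higher in EPZ than in N2B27 (adjusted p = 0.0117), a call lost without EPZ replicate 1 (0.0634) or N2B27 replicate 3 (0.0569). FAM151A had 26.4, 28.2 and 27.8 CPM in EPZ, 8.63, 4.99 and 7.60 CPM in N2B27 and 454, 361 and 358 CPM in PXGL. FAM151A was lower in N2B27 than in PXGL (log2 fold change -5.78 ± 0.15, adjusted p = 9.44e-14) and higher in EPZ than in N2B27 by 1.95 ± 0.15 (adjusted p = 2.08e-07, edgeR), so that N2B27 was lowest and PXGL highest. KHDC1L, a paralogue of KHDC1, had the same order of groups. KHDC1L had 349.5, 351 and 371 CPM in EPZ, 284, 280.2 and 267 CPM in N2B27 and 663, 490.1 and 471 CPM in PXGL. KHDC1L was called higher in EPZ than in N2B27 (log2 0.37 ± 0.10, adjusted p = 0.0127), and not without EPZ replicate 3 (0.0567) or N2B27 replicate 3 (0.0623). DUX4 itself had at most 3 counts in any library and was not tested.

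Another list held 18 genes reported to act upstream of this programme or against it. In EPZ against N2B27, 6 were higher, 8 lower and 4 not called, with a median log2 fold change of -0.015. Of all genes tested, 14.2% were called higher and 10.6% lower. TET2, a dioxygenase that oxidises methylated cytosine, was 5.61-fold higher in EPZ than in N2B27 (adjusted p = 1.33e-08) and lower in N2B27 than in PXGL (log2 -2.84 ± 0.16, adjusted p = 3.07e-10). CDKN1A, an inhibitor of cyclin-dependent kinases, and MDM2, an E3 ubiquitin ligase, were higher in EPZ by a log2 of 1.65 ± 0.09 and 0.46 ± 0.06. The homeobox gene OTX2 was higher by 0.57 ± 0.13 (adjusted p = 0.00306) and KLF17, a naive-state factor that is high in 8-cell embryos, by 0.36 ± 0.07 (adjusted p = 0.00114, edgeR). DPPA2 and DPPA4, which activate Dux in mouse cells, were lower in EPZ than in N2B27, with log2 fold changes of -0.51 ± 0.09 and -0.34 ± 0.06. The DNA methyltransferase genes DNMT3B, DNMT3A and DNMT1 were lower in EPZ as well, at -1.45 ± 0.07, -0.54 ± 0.06 and -0.22 ± 0.07, and the DNMT1 call was lost without EPZ replicate 1 or 3 or N2B27 replicate 1 or 2 (adjusted p 0.0538 to 0.108). CHAF1A and CHAF1B, subunits of the histone chaperone CAF-1 that restrains the 2-cell-like state in mouse cells, were lower too, with log2 fold changes of -0.39 ± 0.08 and -0.45 ± 0.09. SMCHD1, a repressor of DUX4, was at adjusted p = 0.0495 (log2 0.34 ± 0.12), a call lost with DESeq2 size factors (0.0621), without the low-count filter (0.0702) and without any 1 EPZ or N2B27 library (0.0726 to 0.172). NFYA, LRIF1, TRIM28 and SETDB1 did not pass.

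Markers of other cell types that the cultures could hold moved with EPZ in part. Of all genes tested, 14.2% were called higher and 10.6% lower in EPZ than in N2B27. Of 5 tested trophectoderm markers, CDX2 and GATA3 (log2 1.71 ± 0.23) were higher in EPZ than in N2B27 and 3 were not called. CDX2 had 112 counts in EPZ, 2 in N2B27 and 29 in PXGL, which is 2.42, 2.01 and 2.92 CPM in EPZ, 0, 0.0703 and 0.0667 CPM in N2B27 and 0.603, 0.657 and 0.333 CPM in PXGL. The summed level of the 8 listed was 23.1 to 29.3 CPM in EPZ, 13.9 to 15.2 CPM in N2B27 and 10.4 to 11.1 CPM in PXGL, and CGA and VGLL1 had no count. Of 6 tested germ line markers, which matter because CCNA1 and several PRAMEF genes are also expressed in testis, SYCP3 (log2 0.36 ± 0.10) and MAEL (log2 1.04 ± 0.10) were higher and 4 were not called. The SYCP3 call was lost without EPZ replicate 1 (adjusted p = 0.0653) or N2B27 replicate 2 (0.0556). The 10 listed summed to 131 to 141 CPM in EPZ, 119 to 126 CPM in N2B27 and 191 to 202 CPM in PXGL, TEX101 had no count, and DAZL and DDX4 stayed at or below 1.42 CPM. In the amnion list ISL1 was higher (log2 1.70 ± 0.25), IGFBP3 lower (log2 -0.97 ± 0.17) and GABRP not called, with VTCN1 at 0 and a sum of 10.4 to 11.4 CPM in EPZ, 12.9 to 16.0 CPM in N2B27 and 6.27 to 7.24 CPM in PXGL. Both tested fibroblast markers, COL1A1 and COL1A2, were lower in EPZ, with a sum over 6 of 42.1 to 44.6 CPM in EPZ, 53.2 to 55.1 CPM in N2B27 and 13.8 to 19.2 CPM in PXGL. The COL1A1 call was lost without EPZ replicate 1 or 2 or N2B27 replicate 1 or 3 (0.0612 to 0.0785), and the COL1A2 call without any 1 EPZ or N2B27 library, without PXGL replicate 2 and without the filter (0.0521 to 0.163). The part of these cells in the members' values was not tested.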

How the data were processed

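RNA-seq was made from 9 libraries of H1 cells, 3 in each of the EPZ, N2B27 and PXGL groups, which were assigned from the labels. The authors deposited expected counts per gene symbol. Per the labels' protocols, rRNA was depleted from total RNA, while the molecule label says polyA RNA. Trim Galore, STAR 2.7.6a and DESeq2 are named in the submitters' processing notes, with build hg38. The sources give no counting program, annotation or strand setting, so overlapping genes on opposite strands may not be told apart.

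Expected counts were rounded to whole numbers, filtered with edgeR's filterByExpr by group, TMM-scaled and tested with edgeR 4.0.16 (R 4.3.3) by robust quasi-likelihood on all 9 libraries together, with Benjamini-Hochberg adjustment over 15179 genes and a threshold of 0.05. Each family sum replaced its members' rows in a fit of the whole table. On simulated data for EPZ against N2B27 (14747 genes), 87% of 100 genes changed 2-fold and 97% of 100 changed 4-fold were recovered, with 12 false calls. The alternatives were DESeq2 1.42.0, its size factors, other filters, rounding down, 2 groups only, a replicate block and each library left out. Gene positions and transcripts came from GENCODE 29 (54 of 55 members matched) and promoters from RefSeq (GRCh38.p14). Single-copy members with 10 counts or more in all and multi-copy members averaging 1 CPM or more in a group are given by library, the rest by counts. The members and lists were chosen with earlier results of these data known. In the list of upstream genes, 1 gene is counted but its own values are not reported here.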

Additional observations from a re-analysis of the deposited data

How the results depend on the processing

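Members called higher numbered 37 in EPZ against N2B27, 31 in N2B27 against PXGL and 38 in EPZ against PXGL. The shares of all genes tested that were called higher were 14.2%, 27.3% and 28.1% in the same order. With 2 groups only the numbers were 37, 27 and 38, of 41, 30 and 40 members tested. The shares of all genes were then 20.1%, 26.6% and 26.6%. In N2B27 against PXGL, 5 of the 31 calls were then not tested, none was lost and 1 was gained. The numbers with DESeq2's test were 36, 32 and 38, without the low-count filter 36, 32 and 41, and with the stricter filter 36, 30 and 36. Of all genes, 14%, 28.2% and 28.3% were called higher with DESeq2's test. The shares were 9.45%, 19.2% and 19.3% without the filter and 15%, 28.2% and 28.9% with the stricter filter. DESeq2 size factors and rounding down left all 3 counts as they were. The shares of all genes were 13.7%, 28.4% and 28.5% with the size factors and 14.2%, 27.3% and 28.1% with rounding down. Leaving out 1 library at a time gave 33 to 39, 29 to 35 and 38 to 42, with 43 to 46 members tested. The shares of all genes were then 10.8% to 19.2%, 24.1% to 30.4% and 24.9% to 31.2%. Same-numbered libraries did not deviate together (correlations of -0.0256 to 0.0369, against -0.0472 to 0.0241 for other pairs). These values cannot show whether such libraries were handled together. A fit with the replicate block gave 36, 31 and 38, beside 13.9%, 27.4% and 28.2% of all genes. In EPZ against N2B27 the block ended the calls of PRAMEF11 (adjusted p = 0.0517), NLRP7 (0.0647), EZH2 (0.0574) and COL1A2 (0.0646), and in EPZ against PXGL that of GATA2 (0.0504). The 1 member called lower, in N2B27 against PXGL, and none in the other comparisons, held under each of these settings. All 5 family sums were higher in all 3 comparisons under each setting. Of 6061 values recomputed, 5875 were counted as unchanged, 144 lost a call, 42 gained one and 0 with a call in either fit reversed. A gene called in neither fit was counted as unchanged even if its fold change switched sign. The 6061 also hold numbers of calls, counted as unchanged when close to the main number. Whole-table calls of genes lower in EPZ than in N2B27 numbered 1603, against 2786 without PXGL replicate 1 and 2719 with 2 groups only. The cause was not tested. Depth limits DUXA, DUXB and ZSCAN5B, which had at most 15 counts in any library outside EPZ. The untested PRAMEF36P is limited by the division of reads with PRAMEF34P.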

Other observations

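Genes of the oocyte were counted as well. Of 13 oocyte and maternal genes listed, 6 were tested, and in EPZ against N2B27 1 was called higher and 3 lower. Of all genes tested, 14.2% were called higher and 10.6% lower. OOEP and KHDC3L, members of the subcortical maternal complex of the oocyte, were lower in EPZ than in N2B27, with log2 fold changes of -0.55 ± 0.13 (adjusted p = 0.00432) and -0.57 ± 0.09 (adjusted p = 0.000275, edgeR). OOEP had 17.6, 15.9 and 14.8 CPM in EPZ, 24.4, 23.2 and 23.3 CPM in N2B27 and 32.0, 25.1 and 22.3 CPM in PXGL. KHDC3L had 168, 162 and 166 CPM in EPZ, 250.03, 240.2 and 247 CPM in N2B27 and 295, 224 and 211 CPM in PXGL. In both genes all EPZ libraries were below all N2B27 libraries. TLE6, of the same complex, was lower (log2 fold change -1.22 ± 0.42, adjusted p = 0.0436), a call lost without any single library of EPZ and N2B27 but EPZ replicate 1, and without PXGL replicate 2 or 3 (0.0505 to 0.168). NLRP7, an NLR-family gene expressed in oocytes and naive cells, was higher in EPZ by 0.16 ± 0.06 (adjusted p = 0.046), a call lost with DESeq2 size factors (0.0533), without the low-count filter (0.118), without any 1 EPZ or N2B27 library and without PXGL replicate 2 (0.0612 to 0.158). ZP2 and ZP4, zona pellucida genes of the oocyte, had no count in any library.

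Of 6 primed-state markers, 1 (ZIC2) was higher in EPZ than in N2B27 and 4 (CD24, SALL2, SFRP2 and THY1) were lower, and all 6 were higher in N2B27 than in PXGL. Of all genes tested, 14.2% were called higher and 10.6% lower in EPZ than in N2B27, and 27.3% higher in N2B27 than in PXGL. Of 8 naive-state markers, DNMT3L, KLF4, SUSD2 and KLF17 were higher in EPZ than in N2B27, DPPA5 and DPPA3 were lower and 2 were not called. The call of DPPA3 was lost without any 1 EPZ or N2B27 library (adjusted p 0.0549 to 0.144). Of the 2 not called, KLF5 was called higher with 2 groups only (adjusted p = 0.0425, edgeR) and without PXGL replicate 1 (0.0286). TFCP2L1 was called lower in the same settings (0.0106 and 0.0111). Among the 3 core subunits of Polycomb repressive complex 2, in EPZ against N2B27 the log2 fold change was 0.20 ± 0.07 for EZH2, 0.49 ± 0.10 for EED and -0.21 ± 0.06 for SUZ12. The EZH2 call was lost with DESeq2 size factors (0.0517), without the filter (0.123), without any 1 EPZ or N2B27 library and without PXGL replicate 2 (0.0534 to 0.165), and the SUZ12 call without any 1 EPZ or N2B27 library but EPZ replicate 1 (0.0548 to 0.0885). Such RNA levels do not measure the enzyme activity that EPZ-6438 blocks.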
